A study of Bos taurus with 4 samples.

Results

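Subcutaneous adipose tissue of castrated male cattle was compared with that of intact males, so that the comparison addresses what differs in fat between males without and with testes. The comparison takes 2 of the 4 RNA-seq libraries made from Chinese Qinchuan cattle, chosen by their labels. ATAS was made from steers and ATAB from bulls. Each library was 1 pool from 5 adult animals, aged 18 to 24 months by the labels. The study's methods give a single slaughter age within this range. The methods given for the study state free-stall housing and a total mixed ration for its adult animals, without saying whether bulls and steers were fed alike. The age at castration is not given in the sources used here. Because each group was 1 pool, no value below has a replicate check, the spread among animals is not seen, and the tests on reads compare these 2 libraries, not the conditions. The reads were counted on 36373 sequence clusters (UniGene entries, each a set of transcript sequences taken as 1 gene), of which 33724 had at least 1 read in either library.

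White adipose tissue stores triglyceride. In cattle its adipocytes make fatty acids mainly from acetate, and the storage cells lie among fibroblasts that lay down collagen, blood vessels and resident immune cells. Testosterone and the estrogen made from it act on fat cells and their precursors, and castration is used in beef production because steers fatten more readily than bulls.

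The depth was similar, with 16148487 reads counted in ATAB and 15557063 in ATAS. Levels are given as RPKM, the deposited reads per kilobase of cluster scaled to the counted reads of the library, and differences as the ratio of ATAS over ATAB. A cluster was called when an exact binomial test of its reads passed a false discovery rate of 0.001 over all clusters and its ratio was at least 1 in size on the log2 scale. The 95% intervals given after folds are exact binomial (Clopper-Pearson) intervals and cover counting error only. The labelled tissue was checked against 12 adipocyte markers, of which 11 had a cluster with reads. Adiponectin (ADIPOQ) stood at 982 RPKM in ATAB and 1498 RPKM in ATAS, and the lipid droplet coat protein PLIN1 stood at 520.3 RPKM in ATAB and 1005 RPKM in ATAS. The fatty acid binding protein FABP4 had no named cluster and was not analysed here. Of the 8 sex chromosome genes listed, 5 had a cluster with reads. The Y-linked USP9Y had 728 reads in ATAB and 873 in ATAS, and XIST, which is transcribed from the inactive X of females, had 71 reads in ATAB and 98 in ATAS.

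Under the library totals 2942 clusters were called, of which 2313 were higher and 629 lower in ATAS. These were 8.72% of the clusters tested, with 6.86% higher and 1.87% lower. The split between the directions depended on the scaling, because a small set of abundant clusters took a larger share of the reads in ATAB. The 156 clusters at 500 RPKM or more in either library held 39.7% of the ATAB reads and 27.6% of the ATAS reads. Among them, 105 were lower and 51 higher in ATAS. When the reads on these clusters were left out of the totals, every log2 ratio moved down by 0.26, 2336 clusters were called (6.93%), and 1237 were higher (3.67%) and 1099 lower (3.26%). The median log2 ratio over all clusters was 0.30 under the library totals and 0.04 with the abundant clusters left out. A shift of this size, equal for every cluster, cannot turn a call to the opposite direction. The 2 scalings called 1866 clusters the same way. A further 1076 were called higher under the library totals only, and 470 were called lower with the abundant clusters left out only. In the text a gene is said to rise or fall where it was called under both scalings, unless the scaling is named, and the values are those under the library totals. In a pool of whole tissue, fewer cells of a type and less RNA per cell cannot be told apart.

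**Figure D1:**
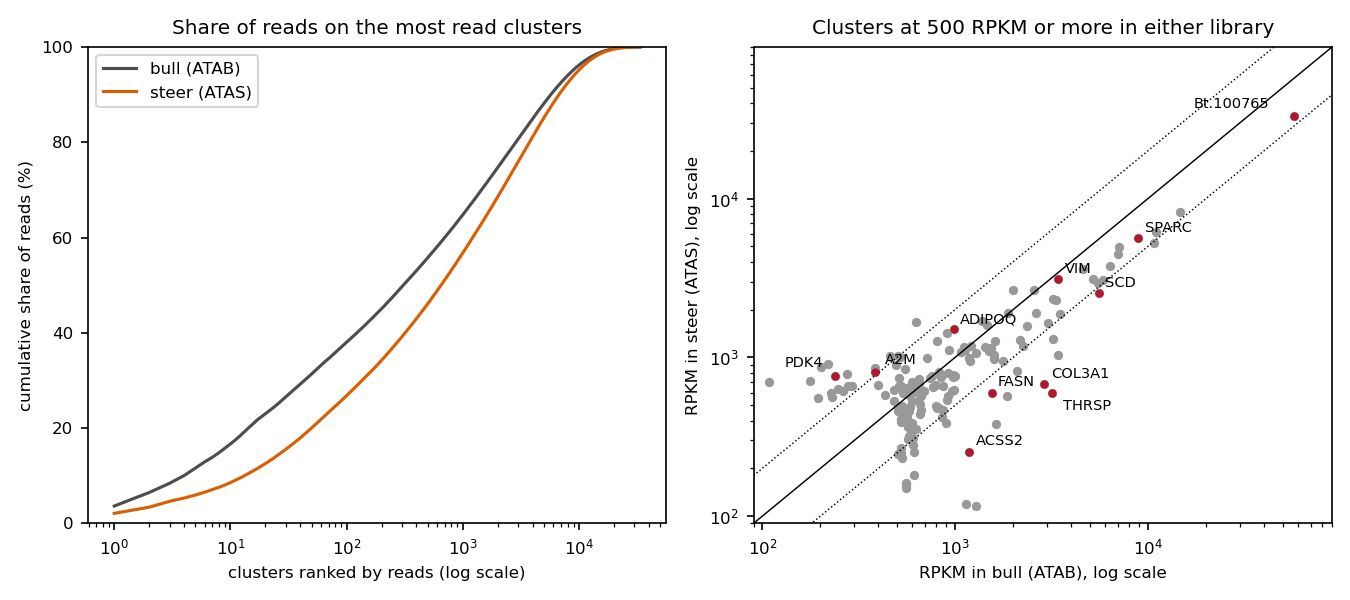
Left, cumulative share of counted reads (percent) against the rank of the clusters by reads (log scale) in ATAB and ATAS. Right, RPKM in ATAS against RPKM in ATAB (log scales) for the 156 clusters at 500 RPKM or more in either library, with the line of equal levels drawn solid and 2-fold differences dotted. The 10 most read clusters held 16.7% of the ATAB reads and 8.56% of the ATAS reads, and 105 of the 156 points lie below the solid line.

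The most read clusters show which transcripts made up this difference. The 10 clusters with the most reads in ATAB were all lower in ATAS by value. Stearoyl-CoA desaturase (SCD), which makes oleate from stearate, fell from 5557 to 2544 RPKM (2.18-fold, 2.17 to 2.2). Collagen COL3A1 fell from 2903 to 676 RPKM (4.29-fold, 4.25 to 4.33), COL1A1 fell from 3412 to 1035 RPKM (3.3-fold, 3.27 to 3.33) and COL1A2 fell from 1866 to 572 RPKM (3.26-fold, 3.23 to 3.3). The matrix glycoprotein SPARC, which binds collagen, stood at 8904 RPKM in ATAB and 5633 RPKM in ATAS (log2 ratio -0.66) and was not called under either scaling. Fatty acid synthase (FASN) fell from 1548 to 599.6 RPKM (2.58-fold, 2.56 to 2.6). Vimentin (VIM), an intermediate filament protein of mesenchymal cells, stood at 3432 RPKM in ATAB and 3117 RPKM in ATAS (log2 ratio -0.14) and moved from rank 15 in ATAB to rank 6 in ATAS.

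The other 5 clusters among the 10 most read in either library are known only from expressed sequence tags and carry no gene name. The most read cluster of both libraries, Bt.100765, held 3.65% of the ATAB reads and 2.11% of the ATAS reads. It stood at 57223 RPKM in ATAB and 33052 RPKM in ATAS (log2 ratio -0.79) and was called lower only with the abundant clusters left out. Clusters Bt.101627, Bt.100267, Bt.60969 and Bt.100906 had log2 ratios of -0.50, -0.65, -0.76 and -0.35, and of these Bt.60969 was called lower with the abundant clusters left out. Unnamed clusters also held some of the widest differences between the libraries. Cluster Bt.55275 went from 303 to 0 reads, 97.3-fold lower when the count of 0 is set to 3 reads. Its interval of the ATAS over ATAB ratio, from the counts themselves, reaches up to 0.0127. Cluster Bt.1978 went from 226 to 2 reads, a 109-fold difference with an interval of the ATAS over ATAB ratio from 0.00111 to 0.0336. Cluster Bt.76000 went from 0 to 156 reads, 54-fold higher with the 0 set to 3 reads, and its interval starts at 43.4-fold. A stretch of 30 bases from the middle of the deposited sequence of each is given in the deposited orientation. No gene symbol was assigned to these clusters here, and their sequences were not searched against known genes.
Bt.100765, bases 319 to 348 of 637: atagtcctagaaagtgttgtgggaagaagg
Bt.55275, bases 695 to 724 of 1389: aacacaggccccaaaaatgtcacttgtact
Bt.1978, bases 434 to 463 of 867: tcatctccggctggggcaacaccctgagca
Bt.76000, bases 389 to 418 of 776: gcggtcaccaagtacaccagctccaagtga

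To describe functions, 5839 gene symbols were read from the cluster with the most reads of each symbol. Under the library totals 13.0% of these symbols were called higher and 3.48% lower. With the abundant clusters left out, 7.78% were called higher and 5.58% lower. The median log2 ratio of the symbols was 0.40 under the library totals and 0.13 with the abundant clusters left out. The counts of each list below are to be read against these shares. The lists with the lowest medians in ATAS were sterol synthesis, fatty acid synthesis, the respiratory chain, glycolysis with the pentose phosphate route, and the citrate cycle. Those with the highest medians were the interferon-response genes, the immediate-early genes, class II presentation and the fat differentiation factors.

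**Figure D2:**
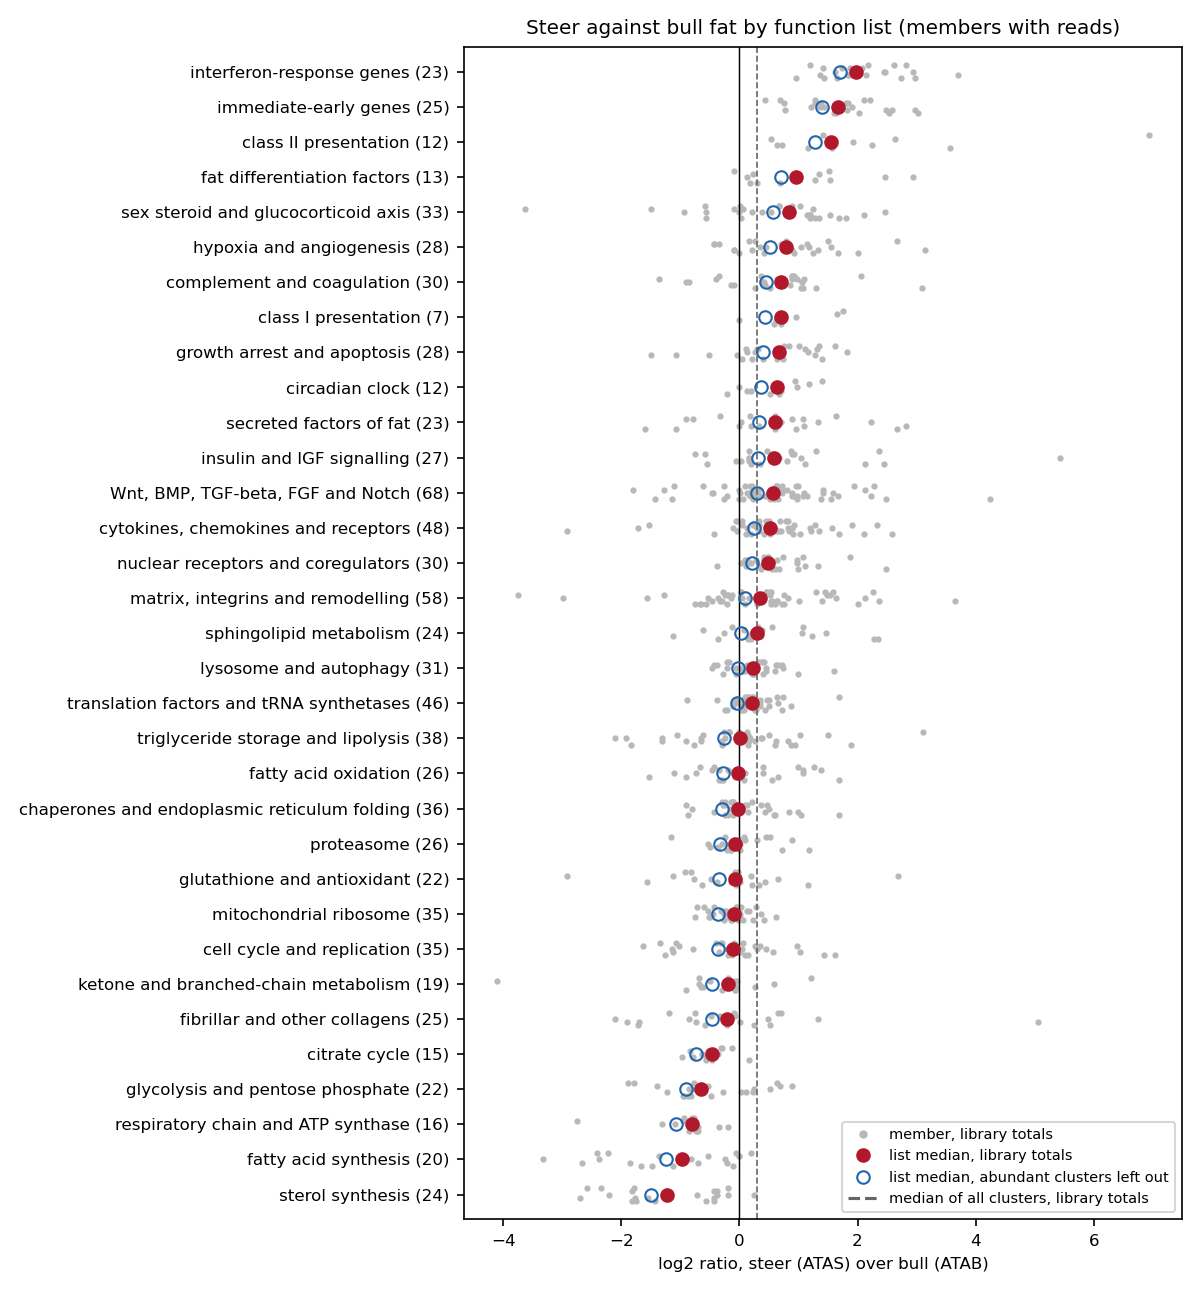
Log2 ratio of ATAS over ATAB for the members of 33 function lists, ordered by list median, with the number of members with reads in brackets. Grey points are members under the library totals, filled circles the list median under the library totals, open circles the median with the abundant clusters left out, and the dashed line the median of all clusters (0.30). The median of sterol synthesis lies at -1.23 and that of the interferon-response genes at 1.97.

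Genes of fatty acid synthesis were lower in steer fat. Of 24 listed genes, 20 had a cluster with reads, and 10 fell and 0 rose under the library totals. The median log2 ratio was -0.97 under the library totals and -1.24 with the abundant clusters left out, when 11 were lower and 0 higher. Reads on these genes were 5.40% of the ATAB library and 2.13% of the ATAS library. The 6 enzymes and carriers that supply acetyl-CoA had the lowest median, at -1.94. ATP citrate lyase (ACLY), which splits cytosolic citrate into acetyl-CoA, fell from 276 to 27.6 RPKM (9.98-fold, 9.52 to 10.5). The mitochondrial citrate carrier SLC25A1 fell from 468 to 90.6 RPKM (5.16-fold, 4.9 to 5.45), and acetyl-CoA synthetase ACSS2, which activates acetate, fell from 1183 to 255 RPKM (4.65-fold, 4.56 to 4.74). Malic enzyme ME1, a source of NADPH, fell from 68.2 to 21.4 RPKM (3.18-fold, 2.98 to 3.41).

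In the synthesis steps themselves, acetyl-CoA carboxylase ACACA, which makes malonyl-CoA, fell from 179 to 64.5 RPKM (2.77-fold, 2.7 to 2.85), beside FASN and SCD given above. The elongase ELOVL5 fell from 218 to 60.1 RPKM (3.62-fold, 3.47 to 3.78). The desaturase FADS2 stood at 8.12 RPKM in ATAB and 4.6 RPKM in ATAS (log2 ratio -0.82) and was called lower only with the abundant clusters left out. Of the regulators, THRSP, a nuclear protein of lipogenic tissues, fell from 3188 to 597 RPKM (5.34-fold, 5.24 to 5.44), and its relative MID1IP1, which promotes polymerization of acetyl-CoA carboxylase, fell from 109 to 17.1 RPKM (6.34-fold, 5.76 to 6.99). The transcription factors that induce this pathway were not called. SREBF1 stood at 61 RPKM in ATAB and 60.8 RPKM in ATAS, with an ATAS over ATAB ratio of 0.997, and MLXIPL stood at 18.9 RPKM in ATAB and 15.9 RPKM in ATAS (log2 ratio -0.25). Pyruvate carboxylase (PC) stood at 82.8 RPKM in ATAB and 94.5 RPKM in ATAS (log2 ratio 0.19) and was the only listed gene of this group with a ratio above 1.

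Sterol synthesis showed the lowest median of the 33 lists. Of 25 listed genes, 24 had reads, and 14 fell and 0 rose under both scalings, with medians of -1.23 and -1.50 on the log2 scale. The decrease took in early and late steps of the route. In the group of steps up to squalene, 6 of 10 fell. Among them, HMGCS1, which condenses acetyl-CoA units into HMG-CoA, fell from 43.6 to 7.26 RPKM (6.0-fold, 5.49 to 6.57). The isopentenyl diphosphate isomerase IDI1 fell from 162 to 24.9 RPKM (6.52-fold, 5.95 to 7.15). The squalene synthase FDFT1 fell from 48.2 to 17.9 RPKM (2.69-fold, 2.44 to 2.97). In the group from squalene to cholesterol, 7 of 11 fell. Among them, lanosterol synthase LSS fell from 35.8 to 10.1 RPKM (3.54-fold, 3.24 to 3.87). The isomerase EBP fell from 78 to 15.3 RPKM (5.09-fold, 4.45 to 5.84), and the methyl sterol oxidase MSMO1 from 51.8 to 15 RPKM (3.46-fold, 3.1 to 3.86). INSIG1, the membrane protein that retains SREBP in the endoplasmic reticulum, fell from 76.3 to 16.6 RPKM (4.6-fold, 4.24 to 4.99). The transcription factor SREBF2 stood at 23.7 RPKM in ATAB and 20.6 RPKM in ATAS (log2 ratio -0.20).

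**Figure D3:**
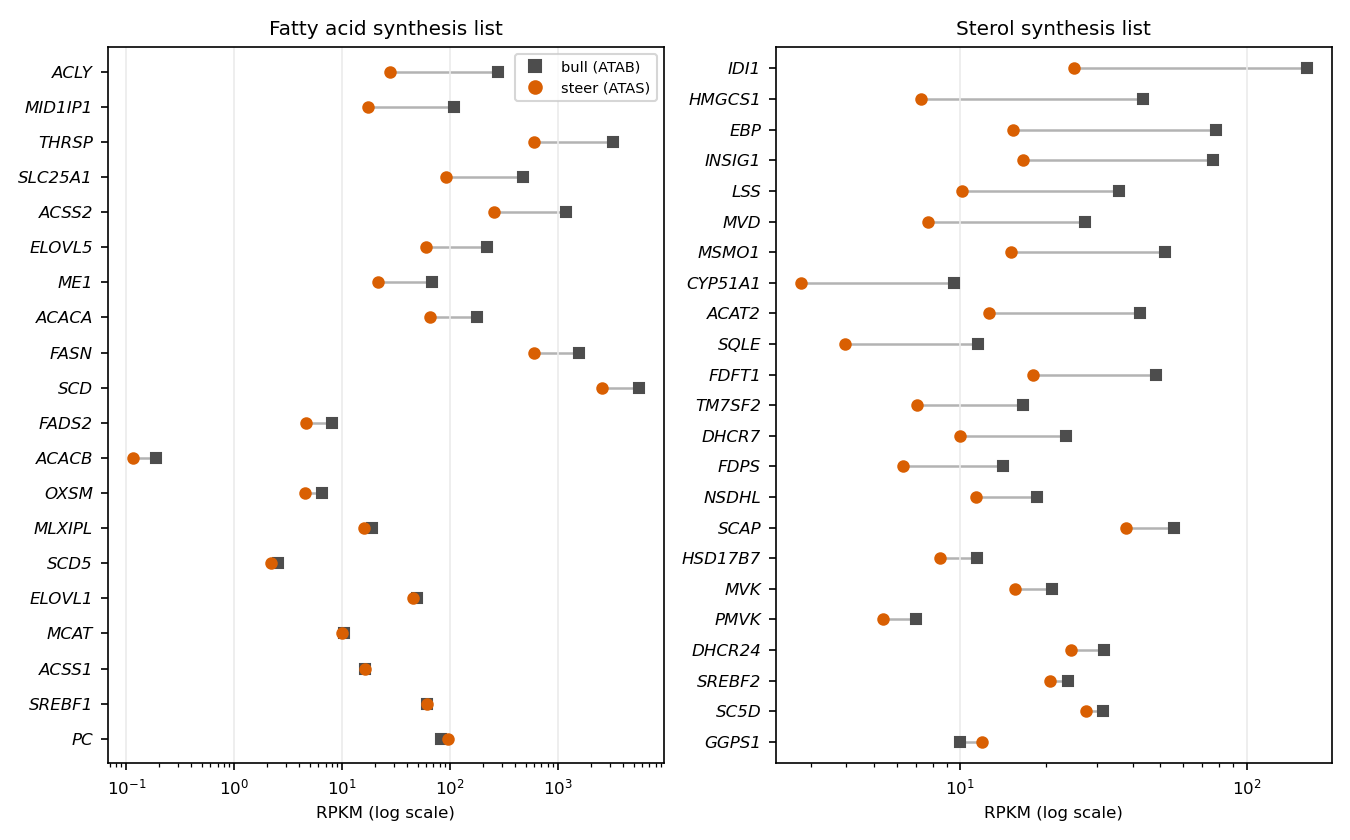
RPKM (log scale) of the members of the fatty acid synthesis list (left) and the sterol synthesis list (right) in the bull pool (squares, ATAB) and the steer pool (circles, ATAS), 1 library each, ordered by log2 ratio. The steer value lies below the bull value for 19 of 20 and 22 of 23 members drawn, and 1 further sterol synthesis member with reads is not shown.

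Some adipocyte markers were called beside these decreases, and their part in them was not tested. Of 11 with reads, 1 was called higher and 2 lower under the library totals and 0 and 4 with the abundant clusters left out, and the summed reads of the 11 were 1.33% of ATAB and 1.57% of ATAS. The lipid droplet protein CIDEA fell from 159 to 41.9 RPKM (3.79-fold), and PCK1, which provides glycerol phosphate in fat, fell from 55 to 26.6 RPKM (2.07-fold). Adiponectin and PLIN1, given above, were higher by value, with log2 ratios of 0.61 and 0.95, and leptin (LEP) stood at 128 RPKM in ATAB and 74.8 RPKM in ATAS (log2 ratio -0.78) and was called lower only with the abundant clusters left out.

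Triglyceride storage was divided between steps. Of 49 listed genes, 38 had reads. Under the library totals 4 were higher and 6 lower, with a median log2 ratio of 0.01, and with the abundant clusters left out 3 were higher and 8 lower, with a median of -0.26, so that the direction of the median turned with the scaling, as it also did when the libraries were scaled on ACTB. Esterification enzymes fell at several steps. The acyltransferase GPAM, which starts glycerolipid synthesis, fell from 211 to 59.3 RPKM (3.56-fold, 3.46 to 3.67), AGPAT2, the next acyltransferase, fell from 1638 to 382 RPKM (4.29-fold, 4.19 to 4.39), and DGAT2, which adds the last fatty acid, fell from 3224 to 1296 RPKM (2.49-fold, 2.46 to 2.51). The phosphatidate phosphatase LPIN1, whose product is diacylglycerol, rose from 33.7 to 291 RPKM (8.66-fold, 8.26 to 9.09). DGAT1 stood at 45.4 RPKM in ATAB and 83 RPKM in ATAS (log2 ratio 0.87). Lipoprotein lipase (LPL), which frees fatty acids from blood lipoproteins, stood at 566 RPKM in ATAB and 304 RPKM in ATAS (log2 ratio -0.90) and was called lower only with the abundant clusters left out. The fatty acid transporter CD36 stood at 926 RPKM in ATAB and 1111 RPKM in ATAS (log2 ratio 0.26).

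On the side of lipolysis, hormone-sensitive lipase (LIPE) rose from 505 to 1024 RPKM (2.03-fold, 1.99 to 2.06) under the library totals only. Adipose triglyceride lipase (PNPLA2) stood at 597 RPKM in ATAB and 529.7 RPKM in ATAS (log2 ratio -0.17) and monoglyceride lipase (MGLL) at 213 RPKM in ATAB and 275 RPKM in ATAS (log2 ratio 0.37). Of the droplet proteins, CIDEC stood at 1469.7 RPKM in ATAB and 1607 RPKM in ATAS (log2 ratio 0.13), PLIN2 at 38.6 RPKM in ATAB and 59.3 RPKM in ATAS (log2 ratio 0.62) and FITM1, present at a low level, rose from 2.22 to 6.29 RPKM (2.83-fold).

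Fatty acid oxidation genes moved both ways. Of 26 genes with reads out of 31, 5 were higher and 2 lower under the library totals (median log2 ratio -0.02), and 3 were higher and 4 lower with the abundant clusters left out (median -0.29). PDK4, the kinase that shuts off pyruvate dehydrogenase when fat is burned, rose from 238 to 765 RPKM (3.22-fold, 3.16 to 3.28). CPT1A, which admits long-chain acyl groups to mitochondria, rose from 12.6 to 32.7 RPKM (2.6-fold, 1.95 to 3.49), and ECI2, an enoyl-CoA isomerase, rose from 30.4 to 73.1 RPKM (2.4-fold). ANGPTL4, a secreted inhibitor of lipoprotein lipase, rose from 62.2 to 131 RPKM (2.1-fold) and the coactivator PPARGC1A rose from 1.07 to 2.26 RPKM (2.11-fold), each under the library totals only. The mitochondrial enzymes DECR1 and ECHS1 fell, the former from 92 to 32 RPKM (2.88-fold) and the latter from 607 to 281 RPKM (2.16-fold). PPARA, the receptor that induces many of these genes in liver, stood at 8.01 RPKM in ATAB and 8.15 RPKM in ATAS (log2 ratio 0.03).

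Central carbon metabolism was lower in ATAS by value in most of its members. In glycolysis and the pentose phosphate route 22 of 28 genes had reads, and 4 fell and 0 rose under the library totals, with a median of -0.64. With the abundant clusters left out 11 were lower and 0 higher, with a median of -0.91. Of the pentose phosphate enzymes, PGD, which yields NADPH, fell from 311 to 119 RPKM (2.62-fold, 2.52 to 2.72), and transketolase (TKT) fell from 893 to 383 RPKM (2.33-fold, 2.28 to 2.38). SLC2A4, the insulin-responsive glucose transporter, fell from 19.2 to 5.54 RPKM (3.46-fold, 2.98 to 4.02). The glycolytic enzymes ALDOA, ENO1, PKM, GPI, PGK1 and PGAM1 had log2 ratios from -0.94 to -0.76 and were called lower only with the abundant clusters left out. The ubiquitous transporter SLC2A1 stood at 4.87 RPKM in ATAB and 9.06 RPKM in ATAS (log2 ratio 0.90) and the hexokinases HK1 and HK2 at log2 ratios of 0.24 and 0.52.

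In the citrate cycle 15 of 21 genes had reads. None was called under the library totals, where the median was -0.47, and 3 were lower with the abundant clusters left out, where it was -0.74. Citrate synthase (CS) stood at 27.3 RPKM in ATAB and 17.5 RPKM in ATAS (log2 ratio -0.64). The respiratory chain and ATP synthase list was thinly named, with 16 of 82 genes read, and all 16 had lower values in ATAS. Of these 3 fell under the library totals (median -0.81) and 10 with the abundant clusters left out (median -1.07). COX8B, a cytochrome oxidase subunit of heart and brown fat, fell from 11.4 to 1.7 RPKM (6.74-fold, 4.79 to 9.74), COX7B fell from 156 to 62.9 RPKM (2.47-fold) and the complex I subunit NDUFS6 fell from 29.9 to 14 RPKM (2.14-fold). The ATP synthase subunit ATP5F1B stood at 456 RPKM in ATAB and 281 RPKM in ATAS (log2 ratio -0.70). Mitochondrial ribosomal proteins did not share this shift to the same size, with 0 of 35 called under the library totals, a median of -0.10, and 1 lower with the abundant clusters left out, where the median was -0.36. That gene, MRPS34, stood at 47.9 RPKM in ATAB and 28.4 RPKM in ATAS (log2 ratio -0.75). Among ketone and branched-chain enzymes 1 of 19 fell under the library totals (median -0.19), and 2 were lower with the abundant clusters left out (median -0.46). The gene that fell, BDH1, which interconverts the ketone bodies, fell from 52.4 to 3.04 RPKM (17.3-fold, 13.7 to 22), while OXCT1, which activates ketone bodies for use, stood at 62 RPKM in ATAB and 59.9 RPKM in ATAS (log2 ratio -0.05).

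Glutathione and antioxidant genes split, with 2 of 22 higher and 3 lower under the library totals (median -0.08) and 1 higher and 6 lower with the abundant clusters left out (median -0.35). The quinone reductase NQO1 fell from 76.8 to 10.2 RPKM (7.56-fold, 6.62 to 8.67) and glutathione synthetase (GSS) fell from 25.4 to 8.58 RPKM (2.96-fold). The secreted glutathione peroxidase GPX3 rose from 108 to 697 RPKM (6.46-fold, 6.2 to 6.72). TXNIP, which binds thioredoxin and restrains glucose uptake, rose from 458 to 1022 RPKM (2.23-fold) under the library totals only.

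The main fibrillar collagens fell in steer fat, and no collagen of the basement membrane or other classes was called. Of 25 genes with reads out of 32, 2 were higher and 5 lower under the library totals, and 2 were higher and 8 lower with the abundant clusters left out, with medians of -0.20 and -0.47. Reads on the list were 5.51% of ATAB and 2.40% of ATAS. In addition to COL1A1, COL1A2 and COL3A1 above, SERPINH1, the collagen chaperone, fell from 530.1 to 232 RPKM (2.28-fold, 2.22 to 2.35), and the cross-linking enzyme LOXL1 fell from 61.4 to 16.4 RPKM (3.75-fold, 3.43 to 4.1). The basement membrane collagens COL4A1 and COL4A2 had log2 ratios of -0.07 and -0.09, and COL6A1 and COL6A2 had -0.16 and -0.18, none of them called. The minor fibrillar chain COL11A1 rose from 2 to 64 reads, with a fold of 33.2 (8.83 to 280.2), and the lysyl hydroxylase PLOD2 rose from 4.71 to 11.8 RPKM (2.51-fold).

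Other matrix genes moved both ways. Of 58 matrix, integrin and remodelling genes with reads out of 64, 13 were higher and 4 lower under the library totals (median 0.35), and 11 were higher and 5 lower with the abundant clusters left out (median 0.09). The proteoglycans PRG4 and VCAN fell, PRG4, a lubricin of joints, from 29 to 2.16 RPKM (13.5-fold, 11.3 to 16.1) and VCAN, the large hyaluronan-binding versican, from 49.8 to 6.28 RPKM (7.92-fold, 7.42 to 8.46). Lumican (LUM), which organizes collagen fibrils, fell from 265 to 89.5 RPKM (2.96-fold), while decorin (DCN), a proteoglycan of the same family, stood at 1115 RPKM in ATAB and 1155 RPKM in ATAS (log2 ratio 0.05). Fibronectin (FN1) stood at 361 RPKM in ATAB and 244 RPKM in ATAS (log2 ratio -0.56). Thrombospondins rose, with THBS1 going from 48 to 247 RPKM (5.15-fold, 4.98 to 5.32) and THBS2 from 18.8 to 82.2 RPKM (4.37-fold, 4.13 to 4.64). So did the aggrecanases of the ADAMTS family, ADAMTS4 from 13.5 to 169 RPKM (12.5-fold, 11.7 to 13.5) and ADAMTS1 from 35.3 to 142 RPKM (4.03-fold), the membrane protease MMP14, from 81.6 to 214 RPKM (2.62-fold), the plasminogen activator PLAT, from 36.6 to 99.9 RPKM (2.73-fold), and the elastic fibre protein MFAP4, from 30.3 to 146 RPKM (4.81-fold). In the basement membrane group LAMB1 rose from 38.5 to 116 RPKM (3.0-fold) and the other 7 were not called. Fibroblast markers that are not matrix genes gave no common direction beside these values. The receptor PDGFRA stood at 52.7 RPKM in ATAB and 41.4 RPKM in ATAS (log2 ratio -0.35), THY1 at 217 RPKM in ATAB and 283 RPKM in ATAS (log2 ratio 0.38) and PI16 at 37.4 RPKM in ATAB and 70.7 RPKM in ATAS (log2 ratio 0.92), and DPP4 rose from 1.09 to 7.0 RPKM (6.42-fold).

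Immediate-early genes, whose mRNAs are induced within minutes of a stimulus and decay quickly, were higher in steer fat. Of 30 listed, 25 had reads and all 25 had higher values in ATAS, with 21 called higher and 0 lower under the library totals and 20 and 0 with the abundant clusters left out. The medians were 1.66 and 1.40. Among the AP-1 subunits FOS rose from 115 to 363 RPKM (3.16-fold, 3.05 to 3.28), FOSB from 34 to 122 RPKM (3.59-fold) and JUNB from 49.7 to 404 RPKM (8.12-fold, 7.69 to 8.58), while JUN and JUND, at log2 ratios of 0.70 and 0.78, were not called. EGR1, a zinc finger factor, rose from 62.2 to 359 RPKM (5.76-fold, 5.55 to 5.99), the orphan receptor NR4A1 rose from 53.3 to 299 RPKM (5.61-fold, 5.36 to 5.87), and BTG2, an antiproliferative gene, rose from 28.1 to 169 RPKM (5.99-fold). ZFP36, which binds and destabilizes cytokine mRNAs, rose from 201 to 864 RPKM (4.31-fold, 4.18 to 4.44), MYC rose from 73 to 222 RPKM (3.04-fold) and ATF3 from 15.1 to 61 RPKM (4.05-fold). According to the study's methods, tissue was taken directly after slaughter and snap-frozen. They give no time to freezing for each pool, and the part of handling in these values was not tested.

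Genes that glucocorticoids induce were also higher. Of 11 with reads, 10 were called higher under the library totals and 7 with the abundant clusters left out, none lower, and the median was 1.35 under the library totals. Of these 11, 2 (DUSP1 and SGK1) are also immediate-early genes and 3 (CEBPD, KLF9 and ZBTB16) are fat differentiation factors, while PDK4 is given with fatty acid oxidation above. ZBTB16 rose from 6.46 to 35.6 RPKM (5.51-fold, 4.81 to 6.33), KLF9 from 35.5 to 90.2 RPKM (2.54-fold) and ERRFI1, a brake on EGF receptor signalling, from 5.04 to 21.8 RPKM (4.32-fold). The glucocorticoid-induced leucine zipper gene TSC22D3 rose from 31.2 to 71.2 RPKM (2.28-fold), glutamine synthetase (GLUL) from 291 to 664 RPKM (2.28-fold) and the clock gene PER1 from 39.7 to 89.7 RPKM (2.26-fold), each under the library totals only. FKBP5, a chaperone of the receptor, was the member not called, at 54.8 RPKM in ATAB and 86.8 RPKM in ATAS (log2 ratio 0.67). The glucocorticoid receptor NR3C1 stood at 22.8 RPKM in ATAB and 26.6 RPKM in ATAS (log2 ratio 0.22).

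No sex steroid gene listed was called higher under both scalings. Of 9 steroid enzymes with reads 2 were higher and 2 lower under the library totals, and 0 and 3 with the abundant clusters left out. Of 7 steroid receptors 1 was higher under the library totals, the mineralocorticoid receptor NR3C2, and 0 with the abundant clusters left out. The main estrogen receptor of fat (ESR1) stood at 9.09 RPKM in ATAB and 6.13 RPKM in ATAS, an ATAS over ATAB ratio of 0.675 (0.584 to 0.779), and was not called. With the abundant clusters left out its log2 ratio was -0.83, also not called. CYP17A1, which makes androgens from progestogens, fell from 103 to 8 reads (12.4-fold, 6.06 to 29.5), both at low levels of 3.66 and 0.295 RPKM. HSD3B7, which acts on bile acid precursors, fell from 37.4 to 13.2 RPKM (2.83-fold), and SRD5A1, which makes dihydrotestosterone, stood at 7.28 RPKM in ATAB and 3.81 RPKM in ATAS (log2 ratio -0.93) and was called lower only with the abundant clusters left out. The steroid dehydrogenase HSD17B11 rose from 8.76 to 20.1 RPKM (2.29-fold) and the hydroxylase CYP1B1 from 11.7 to 23.9 RPKM (2.04-fold) under the library totals only. Of 12 androgen-induced genes listed, 6 had reads and NDRG1 alone was called, rising from 73.2 to 162 RPKM (2.22-fold) under the library totals only. Over the whole sex steroid and glucocorticoid list, 14 of 33 were higher and 2 lower under the library totals (median 0.84), and 7 were higher and 3 lower with the abundant clusters left out (median 0.57). Of the higher calls, 10 and 7 were the glucocorticoid-induced genes given above.

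Interferon-response genes had the highest list median. Of 35 listed, 23 had reads and all 23 had higher values in ATAS, with 22 called higher under the library totals and 20 with the abundant clusters left out, none lower, and with medians of 1.97 and 1.71. MX1, an antiviral GTPase, rose from 23.8 to 168 RPKM (7.05-fold, 6.62 to 7.52), the synthetase OAS2 rose from 1.21 to 15.7 RPKM (13-fold, 10.1 to 17) and RSAD2 (viperin) rose from 9.43 to 42.7 RPKM (4.53-fold, 4.06 to 5.07). The tetratricopeptide protein IFIT1 rose from 4.74 to 36.4 RPKM (7.67-fold) and the cytosolic RNA sensor IFIH1 from 3.99 to 17.7 RPKM (4.43-fold). The factors that carry the signal rose as well, IRF9 from 19.7 to 65.6 RPKM (3.33-fold) and IRF7 from 5.69 to 30.9 RPKM (5.44-fold, 4.62 to 6.42). Guanylate binding proteins GBP4 and GBP5, which respond to interferon gamma, rose from 5.35 to 19.6 RPKM (3.66-fold) and from 3.11 to 19.2 RPKM (6.17-fold), and the chemokine CXCL10 went from 10 to 76 reads. IFI35, the member not called, stood at 9.31 RPKM in ATAB and 18.1 RPKM in ATAS (log2 ratio 0.96).

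Genes of class II antigen presentation were also higher. Of 15 class II genes listed, 12 had reads and all 12 had higher values, with 9 called higher under the library totals and 8 with the abundant clusters left out, none lower, and with medians of 1.54 and 1.28. The invariant chain CD74, which loads class II molecules, rose from 624 to 1663 RPKM (2.67-fold, 2.61 to 2.72), the alpha chain BOLA-DRA rose from 194 to 558 RPKM (2.87-fold, 2.77 to 2.98) and the transactivator CIITA, which switches these genes on, rose from 2.23 to 6.59 RPKM (2.96-fold, 2.48 to 3.54). The beta chain BOLA-DRB3 rose from 36.7 to 229 RPKM (6.24-fold) in its more read cluster, and 0.35 was the log2 ratio of its other cluster (Bt.5356), which was not called. BOLA-DQA2 had 0 reads in ATAB and 355 in ATAS, 123-fold higher when the count of 0 is set to 3 reads. The interval from the counts themselves starts at 99.4-fold. BOLA-DQA5 rose from 3.46 to 41 RPKM (11.9-fold) and BOLA-DQB from 15.2 to 71.8 RPKM (4.73-fold). BOLA-DQA2 and BOLA-DQB also had 2 clusters each, and only the more read cluster of each is given. Class II and class I genes are highly polymorphic and duplicated in cattle, so reads that match a cluster depend on which alleles and haplotypes the 5 animals of a pool carried. A share of animals that carried a haplotype and a level of expression cannot be told apart in these clusters.

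Of 9 class I presentation genes listed, 7 had reads, and 2 rose under both scalings with medians of 0.70 and 0.44. The peptide transporter TAP1 rose from 9.06 to 30.6 RPKM (3.38-fold, 3.03 to 3.77) and the class I regulator NLRC5 from 3.17 to 9.96 RPKM (3.15-fold, 2.78 to 3.57), while TAPBP stood at 69.1 RPKM in ATAB and 106 RPKM in ATAS (log2 ratio 0.62). The class I heavy chains themselves are mostly named in the headers by description, and these clusters were picked from the header text after the values had been seen. There were 17 clusters of class I and class I-like chains with reads, of which 9 were higher and 0 lower under the library totals, 8 and 0 with the abundant clusters left out, and the summed reads were 2.82-fold higher. Cluster Bt.71409 (class I JSP.1) rose from 87.2 to 325 RPKM, Bt.28022 rose from 51.7 to 159 RPKM and Bt.96949, a partial heavy chain, rose from 16.1 to 312 RPKM. The immunoproteasome subunit PSMB8, which trims peptides for class I, rose from 28.8 to 64.9 RPKM (2.26-fold) under the library totals only, and the constitutive subunit PSMB5 that PSMB8 replaces fell from 69.7 to 31.3 RPKM (2.23-fold). Over the 26 proteasome genes with reads, 1 was higher and 1 lower under the library totals (median -0.07), and 0 and 1 with the abundant clusters left out (median -0.34).

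**Figure D4:**
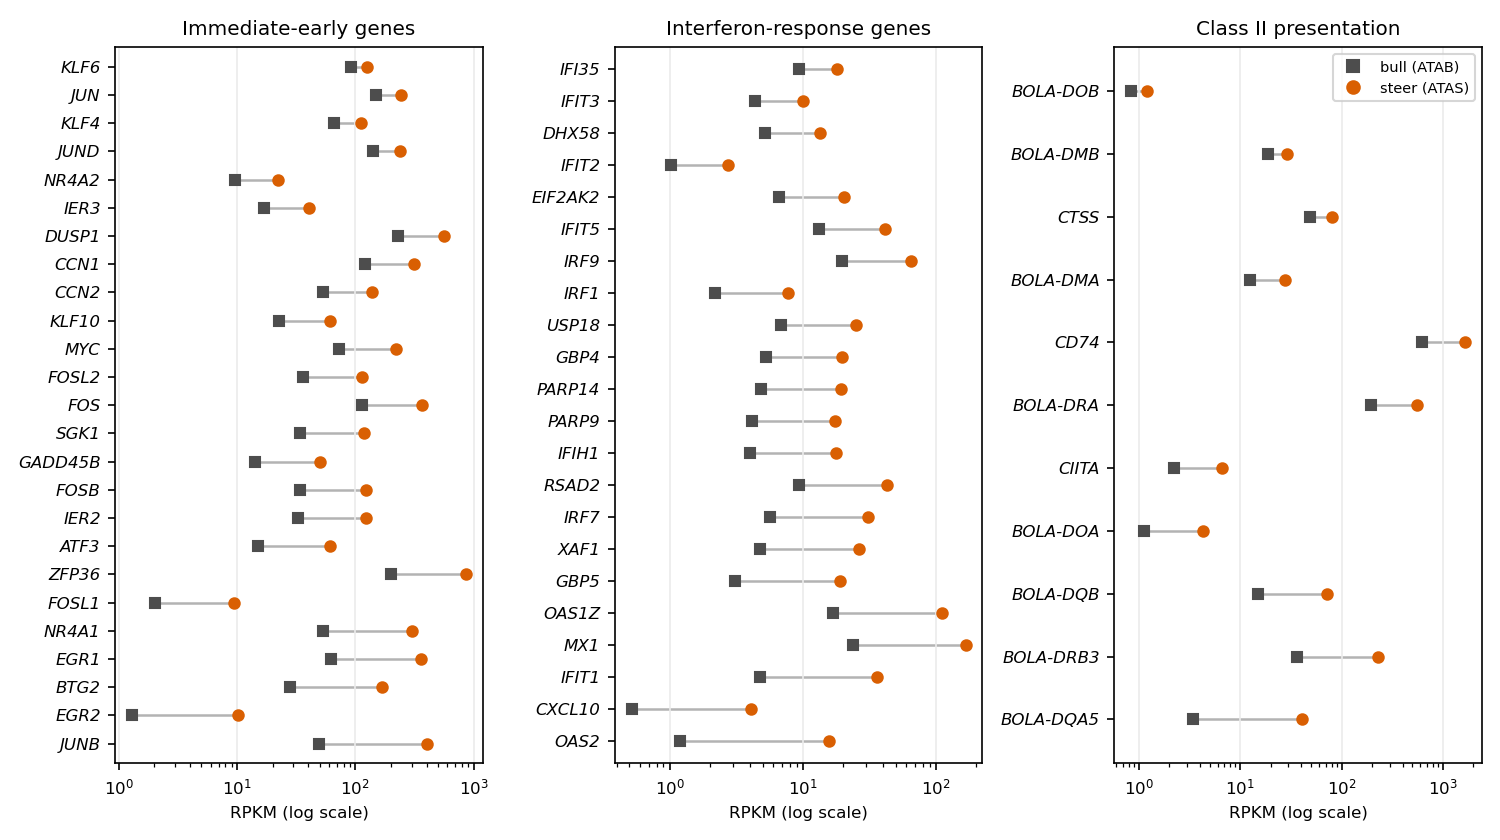
RPKM (log scale) of the members of the immediate-early, interferon-response and class II presentation lists in the bull pool (squares, ATAB) and the steer pool (circles, ATAS), 1 library each, ordered by log2 ratio. The steer value lies above the bull value for all 25, 22 and 11 genes drawn, and BOLA-DQA2, with 0 reads in ATAB, has no place on the log axis. Another interferon-response gene with reads is not shown.

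Leukocyte markers were higher beside these lists, at low levels. Of 14 markers of leukocytes, T and NK cells with reads, 8 were called higher under the library totals and 2 with the abundant clusters left out, none lower, and the summed reads were 0.00715% of ATAB and 0.0143% of ATAS. The common leukocyte antigen PTPRC rose from 7.91 to 16.8 RPKM (2.12-fold) under the library totals only, and CD3E, a subunit of the T cell receptor complex, rose from 60 to 165 reads (2.85-fold). Of 8 macrophage markers none was called (median 0.61), and CD163 stood at 37.6 RPKM in ATAB and 39.4 RPKM in ATAS (log2 ratio 0.07) and CSF1R at 37.2 RPKM in ATAB and 60.6 RPKM in ATAS (log2 ratio 0.70). Of 6 B and plasma cell markers 3 were higher under the library totals (median 1.39). The B cell marker CD79A had 863 reads in ATAB and 1002 in ATAS and MS4A1 had 10 reads in ATAB and 28 in ATAS, neither called. The immunoglobulin chain IGHG1 rose from 26 to 701 reads (28-fold, 18.9 to 43.1) and the joining chain JCHAIN from 74 to 325. Over 8 clusters whose headers name an immunoglobulin chain, also picked after the values were seen, 7 rose and the summed reads were 10.8-fold higher, with the kappa chain cluster Bt.57604 going from 145 to 1642 reads and the heavy chain of IgM (IGHM) going from 240 to 2336. Over 12 clusters of T cell receptor chains, picked in the same way, 3 rose under the library totals and 2 with the abundant clusters left out, and the summed reads were 2.21-fold higher. The part of these cells in the class II and interferon values was not tested.

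Of 48 cytokines, chemokines and receptors with reads out of 76, 11 were higher and 2 lower under the library totals (median 0.51), and 8 were higher and 2 lower with the abundant clusters left out (median 0.25). The macrophage growth factor CSF1 rose from 27.3 to 118 RPKM (4.32-fold, 4.08 to 4.56) and IL6R, a receptor subunit, rose from 5.48 to 27.4 RPKM (5.01-fold, 4.34 to 5.79). The chemokine CCL5, which attracts T cells, rose from 94 to 290 reads, and IL7R, a receptor of lymphocytes, from 12 to 69. The neutrophil attractants CXCL5 and CXCL8 fell, from 55 to 7 and from 75 to 22 reads, and the neutrophil receptor CXCR2 fell from 30 to 6. TNF had 8 reads in ATAB and 11 in ATAS and IL1B 21 reads in ATAB and 15 in ATAS, depths at which a 2-fold difference would not pass the test.

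Of 30 complement and coagulation genes with reads out of 41, 7 were higher and 0 lower under the library totals (median 0.71), and 3 were higher and 2 lower with the abundant clusters left out (median 0.45). Complement component C3 rose from 10.1 to 86.5 RPKM (8.57-fold, 7.97 to 9.22). Tissue factor (F3) rose from 12.2 to 29.9 RPKM (2.45-fold). The protease inhibitor A2M rose from 382 to 803 RPKM (2.1-fold) and C1R from 138 to 287 RPKM (2.08-fold) under the library totals only. Factor B (CFB) stood at 150.3 RPKM in ATAB and 80.5 RPKM in ATAS (log2 ratio -0.90) and was called lower only with the abundant clusters left out. Clusterin (CLU), the most read gene of the list, stood at 2001 RPKM in ATAB and 2669 RPKM in ATAS (log2 ratio 0.42).

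In insulin and IGF signalling 7 of 27 genes with reads were higher and 0 lower under the library totals (median 0.58), and 5 were higher and 1 lower with the abundant clusters left out (median 0.32). The binding proteins differed among themselves. IGFBP3, the main carrier of IGF in blood, rose from 75.7 to 387 RPKM (5.12-fold, 4.92 to 5.33). IGFBP1, which insulin represses in liver, went from 0 to 124 reads. It was 42.9-fold higher with the 0 set to 3 reads, and its interval starts at 34.4-fold. IGFBP4 and IGFBP5 stood at log2 ratios of -0.55 and 0.04, and IGFBP2 at -0.75, called lower only with the abundant clusters left out. IGF1 stood at 11.3 RPKM in ATAB and 7.51 RPKM in ATAS (log2 ratio -0.59), IGF2 rose from 142 to 306 RPKM (2.16-fold) under the library totals only, and the receptor IGF1R rose from 3.64 to 8.98 RPKM (2.47-fold). The adaptor GRB10, which dampens insulin receptor signalling, rose from 7.37 to 32.2 RPKM (4.36-fold, 3.93 to 4.84) and SOCS3, which dampens cytokine receptors, from 9.64 to 52.9 RPKM (5.49-fold).

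Among 23 secreted factors of fat with reads out of 31, 6 were higher and 2 lower under the library totals (median 0.60) and 4 and 4 with the abundant clusters left out (median 0.34). Angiotensinogen (AGT) rose from 3.7 to 26.1 RPKM (7.06-fold, 5.71 to 8.8) and the activin subunit INHBB rose from 3.18 to 14.8 RPKM (4.66-fold). C1QTNF2 fell from 11.7 to 3.88 RPKM (3.02-fold) and GDF10 fell from 8.48 to 4.04 RPKM (2.1-fold). NAMPT stood at 9.78 RPKM in ATAB and 18.9 RPKM in ATAS (log2 ratio 0.95). The hypoxia and angiogenesis genes were higher in 11 of 28 and lower in 0 under the library totals (median 0.79) and in 7 and 0 with the abundant clusters left out (median 0.52). Vascular endothelial growth factor VEGFA rose from 40.4 to 257 RPKM (6.36-fold, 5.94 to 6.8), its receptor FLT1 from 10.2 to 28.8 RPKM (2.83-fold), adrenomedullin (ADM), a vasodilator peptide, from 176 to 708 RPKM (4.01-fold, 3.89 to 4.15), and HIF3A, a hypoxia-inducible factor subunit, from 6.12 to 54.2 RPKM (8.84-fold, 8.04 to 9.75). EPAS1 stood at 416 RPKM in ATAB and 310.0 RPKM in ATAS (log2 ratio -0.42) and the hydroxylase EGLN1, which marks HIF for decay, at 21.5 RPKM in ATAB and 24.8 RPKM in ATAS (log2 ratio 0.21). Endothelial markers were higher by value beside them, all 11 with reads, with 3 called under the library totals and 0 with the abundant clusters left out (medians 0.92 and 0.65). Their summed reads were 0.211% of ATAB and 0.386% of ATAS, and their part in the hypoxia, angiogenesis and Notch values was not tested. Pericyte and smooth muscle markers gave 0 calls of 11 (median 0.34).

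Of the fat differentiation factors 13 of 19 had reads, and 6 were higher and 0 lower under both scalings, with medians of 0.96 and 0.70. KLF5, an early activator of adipogenesis, rose from 1.0 to 7.65 RPKM (7.63-fold, 5.73 to 10.3), CEBPD, another early factor, rose from 96.4 to 278 RPKM (2.88-fold, 2.75 to 3.02), and KLF15 rose from 6.29 to 15.3 RPKM (2.44-fold). GATA2, which restrains adipogenesis, rose from 3.69 to 10.6 RPKM (2.87-fold). The late factor CEBPA stood at 54.7 RPKM in ATAB and 61.6 RPKM in ATAS (log2 ratio 0.17), STAT5A at 20.7 RPKM in ATAB and 19.5 RPKM in ATAS (log2 ratio -0.09) and EBF2 at 7.5 RPKM in ATAB and 8.82 RPKM in ATAS (log2 ratio 0.23). Of 30 nuclear receptors and coregulators with reads out of 41, 4 were higher and 0 lower under the library totals (median 0.48), and 3 and 0 with the abundant clusters left out (median 0.22). The receptors NR1H3 and RXRG stood at log2 ratios of 0.56 and 0.10. In the circadian clock 2 of 12 were higher under the library totals, PER1 and NFIL3, and NFIL3 alone with the abundant clusters left out, with medians of 0.64 and 0.37. The opposing repressor NR1D1 stood at 8.98 RPKM in ATAB and 10.3 RPKM in ATAS (log2 ratio 0.20). The time of day of sampling is not given in the sources used here.

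In the Wnt, BMP, TGF-beta, FGF and Notch list 14 of 68 genes with reads were higher and 4 lower under the library totals (median 0.57), and 11 and 5 with the abundant clusters left out (median 0.30). The Wnt inhibitor SFRP4 fell from 189 to 70.6 RPKM (2.68-fold, 2.54 to 2.82) and SOST, another Wnt inhibitor best known from bone, fell from 83 to 37 reads. SFRP1 rose from 50 to 210 reads and the BMP inhibitor GREM1 from 17 to 91. The BMP targets ID1 and ID3 rose from 23.6 to 115 RPKM (4.85-fold) and from 38.2 to 112 RPKM (2.94-fold), and SMAD6, an inhibitor that BMP induces, rose from 2.54 to 6.8 RPKM (2.68-fold). FGF2 rose from 10.5 to 33.6 RPKM (3.19-fold, 2.98 to 3.42). FGFR3 went from 0 to 55 reads, 19.0-fold higher with the 0 set to 3 reads, and its interval starts at 15-fold. The Notch ligand of endothelium DLL4 rose from 21.2 to 47 RPKM (2.22-fold) under the library totals only, and the Notch target HEY1 rose from 6.22 to 18.7 RPKM (3.01-fold).

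Some genes of cell division fell. Of 35 with reads out of 42, 3 were higher and 6 lower under the library totals (median -0.10), and 2 were higher and 8 lower with the abundant clusters left out (median -0.37). MKI67, a marker of dividing cells, fell from 3.72 to 1.46 RPKM (2.55-fold, 2.18 to 2.98), the ribonucleotide reductase subunit RRM2 fell from 5.55 to 1.78 RPKM (3.11-fold) and the kinase BUB1 fell from 128 to 61 reads. The helicase subunits MCM2 and MCM7 stood at log2 ratios of -0.13 and 0.35. The cyclin-dependent kinase inhibitor CDKN1A rose from 42.8 to 132 RPKM (3.08-fold, 2.92 to 3.26). In the growth arrest and apoptosis list 9 of 28 were higher and 1 lower under the library totals (median 0.67), and 6 and 1 with the abundant clusters left out (median 0.41). The death receptor FAS rose from 2.17 to 5.29 RPKM (2.43-fold), the apoptosis inhibitor BCL2 from 4.3 to 10.7 RPKM (2.49-fold), and the desmosomal protein PERP fell from 5.44 to 1.92 RPKM (2.83-fold).

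The chaperone, translation and lysosome lists gave few calls, against 16.5% of all named genes called in either direction under the library totals. Of 36 chaperones and folding genes 2 were higher and 0 lower under the library totals (median -0.03), and 1 and 2 with the abundant clusters left out (median -0.30), with HSPA5, the main chaperone of the endoplasmic reticulum, at 69.9 RPKM in ATAB and 67.9 RPKM in ATAS (log2 ratio -0.04). Of 46 translation factors and tRNA synthetases 1 was higher under the library totals (median 0.22), and 1 was higher and 1 lower with the abundant clusters left out (median -0.04). The gene that rose, tryptophanyl-tRNA synthetase WARS1, which interferon gamma induces, went from 21.1 to 67.8 RPKM (3.21-fold, 2.98 to 3.46). Of 31 lysosome and autophagy genes 1 was higher under both scalings (medians 0.23 and -0.03), and this was GABARAPL1, an autophagosome protein, from 76.4 to 232 RPKM (3.03-fold). Of 24 sphingolipid genes 6 were higher and 1 lower under the library totals (median 0.29), and 3 and 1 with the abundant clusters left out (median 0.03). The ceramidase ACER3 fell from 58.9 to 27.2 RPKM (2.17-fold), another ceramidase, ACER2, rose from 19 to 89 reads, and the ceramide synthase CERS4 rose from 11 to 54 reads. In the translation and lysosome lists the sign of the median turned with the scaling, and so did that of the sphingolipid list under TMM and median-of-ratios scaling, so no direction is given for these lists.

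The 15 symbols with the widest rises and the 15 with the widest falls, among those with at least 100 reads in 1 library and called the same way under both scalings, are a description chosen on this contrast. The rises were led by BOLA-DQA2 and IGFBP1, both with 0 reads in ATAB. SCG2, a secretory granule protein of neuroendocrine cells, rose from 0.384 to 14.2 RPKM (37-fold, 22.2 to 66.5), and DUOX1, which makes hydrogen peroxide at membranes, rose from 8 to 198 reads. Several act in immune responses. IDO1, which degrades tryptophan and is induced by interferon gamma, rose from 13.3 to 183 RPKM (13.7-fold, 12.4 to 15.3), the nucleic acid sensor ZBP1 rose from 1.23 to 21.3 RPKM (17.4-fold), the exonuclease ISG20 rose from 8 to 148 reads, and the checkpoint ligand CD274 from 8 to 110. IRF4, a transcription factor of lymphocytes that is also made in adipocytes, rose from 4.79 to 72.8 RPKM (15.2-fold, 12.5 to 18.6). GALNT15, a glycosyltransferase, rose from 4.69 to 61.5 RPKM (13.1-fold, 11.7 to 14.8) and PAMR1, a secreted protease-like protein, from 1.22 to 17.4 RPKM (14.3-fold, 10.9 to 19.2). The remaining 4, IGHG1, OAS2, ADAMTS4 and BOLA-DQA5, are described above.

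Several of the falls were in genes known from epithelia. Lactoferrin (LTF), an iron-binding protein of secretions and neutrophil granules, fell from 14.2 to 0.366 RPKM (38.7-fold, 22.9 to 71.3). Keratin 19 (KRT19), an epithelial filament protein, fell from 127 to 4.13 RPKM (30.8-fold, 25 to 38.5), and claudin CLDN4, of epithelial tight junctions, fell from 125 to 17 reads. Of the 7 keratinocyte markers with reads, which do not hold KRT19, none fell. KRT10 had 92 reads in ATAB and 62 in ATAS, KRT8 25 reads in ATAB and 32 in ATAS and CDH1, the epithelial cadherin, 187 reads in ATAB and 113 in ATAS, while EPCAM rose from 34 to 91. Over 17 keratin clusters picked from the header text after the values were seen, 4 fell and 0 rose, and the summed reads went from 3265 to 289, of which KRT19 made up 2882 and 90. The part that RNA of an epithelium has in these values was not tested. The falls also held ATP12A, a proton pump of epithelia, from 8.47 to 1.02 RPKM (8.31-fold, 6.26 to 11.2), the potassium channel KCNK12, from 153 to 17 reads, and RIMKLA, which makes N-acetylaspartylglutamate, from 125 to 12. The other members, BDH1, PRG4, CYP17A1, ACLY, VCAN, NQO1, COX8B, IDI1 and MID1IP1, are described above.

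**Figure D5:**
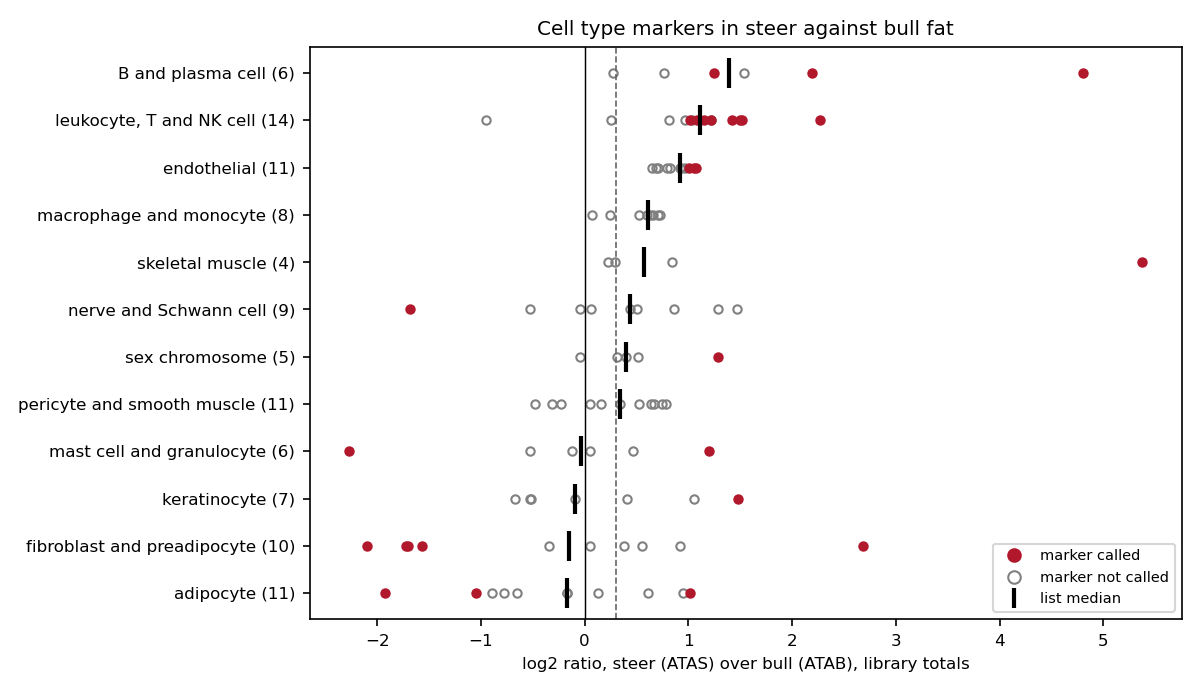
Log2 ratio of ATAS over ATAB under the library totals for 11 lists of cell type markers and 1 of sex chromosome genes, with the number of markers with reads in brackets. Filled circles were called, open circles were not, vertical ticks are list medians and the dashed line is the median of all clusters (0.30). KRT14, NEFM and S100A12, with 0 reads in ATAB and at most 3 in ATAS, are drawn with the 0 set to 3 reads and have no direction. The leukocyte and B cell medians lie at 1.12 and 1.39, and the adipocyte median at -0.17.

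Markers of other cells that fat can hold were called in both directions. Of 10 fibroblast and preadipocyte markers 1 was higher and 4 lower under both scalings (median -0.15), the 4 being COL1A1, COL1A2, COL3A1 and LUM. Of 4 skeletal muscle markers with reads, MYH2, a myosin of fast fibres, went from 1 to 40 reads (41.5-fold, 7.04 to 1680.5), and CKM and TTN had 8 reads in ATAB and 9 in ATAS and 82 reads in ATAB and 142 in ATAS. Of 9 nerve and Schwann cell markers NCAM1 fell from 167 to 50 reads and none rose (median 0.44), with S100B, also made by adipocytes, at 215 RPKM in ATAB and 209 RPKM in ATAS (log2 ratio -0.04). Of 6 mast cell and granulocyte markers KIT rose from 5.39 to 12.4 RPKM (2.3-fold) under the library totals only and CXCR2 fell (median -0.03). Of 7 keratinocyte markers EPCAM alone was called. The median of this list was -0.10 with the 0 of KRT14 set to 3 reads and 0.16 without KRT14, which had 0 reads in ATAB and 2 in ATAS, so no direction is given. None of the 8 red cell markers had a cluster with reads that was matched by symbol. Clusters described in the headers as gamma 2 hemoglobin and as the erythroid aminolevulinate synthase held 8 reads and 1 read in ATAB and 0 in ATAS, too few to compare. Of the 5 sex chromosome genes OFD1Y, a Y-linked copy of a ciliary gene, rose from 125 to 293 reads (median 0.40), and reads that also match a near-identical copy would not be counted, since reads were kept only where they matched at 1 place.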

How the data were processed

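RNA was isolated from subcutaneous fat, and 1 pooled RNA-seq library was made for each group of 5 animals. The study's methods do not say whether tissue or RNA was pooled. According to the study's methods the authors cleaned the reads, aligned them with SOAPaligner and counted reads that matched at 1 place, and CASAVA is named in the submitters' processing notes. The deposited files give raw counts of such reads per UniGene cluster, RPKM made by the authors from these counts, the cluster length and the library total, and the percent of each cluster's sequence that was covered, which was not used here. The methods name the masked bosTau7 genome for the alignment, whereas the deposited rows are UniGene clusters, so the reference behind these counts is uncertain. Whether counting used strand is not given in the sources used here.

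Both files were joined by their first column. Clusters were named from the headers of the deposited cluster sequences, by the RefSeq accession for 3365 clusters, by a current symbol in the header for 1342, by an older symbol for 118, by a header symbol outside the RefSeq gene table for 146 and by the full gene name for 923. The RefSeq gene table was used for names only. Of 33724 clusters with reads, 5894 had a symbol, 6930 a description and 20900 expressed sequence tags only. Where a symbol had several clusters, the cluster with the most reads stood for it.

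The number of reads of a cluster in ATAS given its reads in both libraries was tested with a 2-sided exact binomial test against the share expected from the totals, with Benjamini-Hochberg adjustment over all clusters. A cluster was called at a false discovery rate of 0.001 and a log2 ratio of 1 or more in size. A count of 0 was set to 3 reads per library for ratios. The second scaling used the reads left after the 156 clusters at 500 RPKM or more in either library were taken out. The steps were tested on simulated data. The named genes were the members of 33 function lists and 13 marker lists, the 15 widest rises and falls with at least 100 reads in 1 library and called under both scalings, the 10 most read clusters of each library, and sex steroid receptors. Some of these genes are not reported here. The genes and lists were chosen with earlier results of these data known, and the groups picked from header text were chosen after the values were seen. Other scalings (without the 100 most read clusters, edgeR TMM, median-of-ratios, ACTB) and limits were tried. So was edgeR's exact test, with the spread between pools set to a biological coefficient of variation of 0.4. The fetal and heifer libraries were not used here. Python 3.11.15, numpy 2.4.6, pandas 2.3.3, scipy 1.17.1, matplotlib 3.10.9, R 4.3.3 and edgeR 4.0.16 were used.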

Additional observations from a re-analysis of the deposited data

How the results depend on the processing

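Depth was alike in the 2 libraries and limits what can be said for genes of few reads, and 1 pool of 5 animals stands for each group. No paired analysis was possible because each group has 1 library, and leaving out a replicate was not possible for the same reason. The split of the calls depended on the scaling. Against 2313 higher and 629 lower under the library totals, leaving out clusters at 500 RPKM or more gave 1237 higher and 1099 lower, leaving out the 100 most read clusters gave 1293 and 1039, TMM gave 1049 and 1234, and median-of-ratios gave 1078 and 1215. The share of calls that were higher was 78.6% under the library totals and 53%, 55.4%, 45.9% and 47% under these scalings. Scaling on ACTB left it at 77.4%, with 2219 higher and 649 lower. Setting the abundant limit at 100 RPKM gave 1066 higher and 1223 lower, and at 2000 RPKM 1440 and 932. A log2 ratio of at least 2 in size left 789 calls, 583 higher and 206 lower. The spread between pools, not single animals, was also set to a biological coefficient of variation of 0.4. This is an assumption, since 1 pool a group shows no such spread. With it edgeR's exact test called 5 clusters, 3 higher and 2 lower. These were BOLA-DQA2, IGFBP1 and Bt.76000 (higher), and Bt.55275 and Bt.1978 (lower). No named gene was called in the opposite direction under these alternatives, but the scalings could not have given such a call. Their largest shift of the log2 ratios was -0.32 (TMM), and a call needs 1 in size. A stricter threshold or a read filter cannot turn a call either. The 100 and 2000 RPKM limits were run for the counts of calls only. Leaving out list members with 0 reads in 1 library and at most 3 in the other, chosen after seeing the data, turned the median of the keratinocyte list from -0.10 to 0.16 and kept the sign of the other 3 lists it touched. A minimum of 10 reads gave 2990 calls, and summing the clusters of a symbol gave 2932.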
